A study of Caenorhabditis elegans with 2 samples.

Results

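The nuclear genes of the respiratory chain and ATP synthase were examined for binding of NHR-10, a nuclear hormone receptor of the roundworm Caenorhabditis elegans. Members were taken by gene name alone: protein-coding genes of Ensembl WBcel235 in the nuo, cox, atp, ucr, cyc and sdh name series on the nuclear chromosomes, with isp-1, gas-1 and lpd-5. This gave 41 of 19973 nuclear protein-coding genes. They fall into 8 genes of complex I, 4 of complex II, 7 of complex III, 2 of cytochrome c, 7 subunits and 8 assembly factors of complex IV, and 5 of ATP synthase. Names decided membership, so some subunits with other names lie outside the list and are described further on.

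The measurement was chromatin immunoprecipitation sequencing (ChIP-seq) on whole L2 larvae of strain OP239, with males and females pooled. The strain carries the unc-119(ed3) allele and the transgene wgIs239, from which NHR-10 is made with GFP and FLAG at its C terminus. The antibody entry in the labels reads nhr-10, and the worms' age is given as unknown. There was 1 group with 2 biological replicates of 1 library each, listed as separate biosamples and both with the tagged receptor, so no comparison between groups was possible. The control library was not analysed here. A bound site could not be assigned to a tissue, because whole animals were used.

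The respiratory chain sits in the inner mitochondrial membrane and passes electrons from NADH and succinate to oxygen. Complexes I and II feed electrons to ubiquinone, complex III passes them to cytochrome c, and complex IV hands them to oxygen, while ATP synthase uses the resulting proton gradient to make ATP. Most subunits are encoded in the nucleus and a few in mitochondrial DNA. NHR-10 is known for its part in switching on the propionate shunt, a mitochondrial route of propionate breakdown used when vitamin B12 is short.

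For each gene the region of highest deposited signal with its summit within 1000 bp of any transcription start site (TSS) was taken from the pooled list, made from both replicates. Signal is the authors' own value per region and was compared within 1 list only, with rank 1 the highest. The pooled list held 30000 regions with a median signal of 8.38. It is labelled as peaks and background, so its weaker regions may be background. The optimal list had been cut by the irreproducible discovery rate (IDR), which asks how alike 2 replicates order their regions. It held 491 peaks, and its lowest signal was 27.4. These were exactly the 491 regions of highest pooled signal, so having a peak equals passing a cut on that signal. A peak does not mean that both replicates ranked the region high. Any region of these 491 is called a peak below. The depth of the libraries is unknown, since the files give no read counts.

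Of the 41 genes, 7 had a peak: cox-5A, cox-6B, cox-6A and cox-5B of complex IV, atp-1 of ATP synthase, cyc-1 of complex III and sdha-1 of complex II. This is 17.1% of the members (exact 95% Clopper-Pearson interval 7.15% to 32.1%, which covers counting error only). Among all 19973 genes the share was 2.47%, or 494 genes. These lay at 333 distinct peaks, since genes sharing a peak were each counted, while the 7 members had 7 distinct peaks. A pooled region of any strength was near 31 members (75.6%), against 53% of all genes. Over the genes with a region, median signal was 14.9 in the 31 members and 9.51 in the 10585 genes. With genes lacking a region set to 0, the median was 11.3 over the 41 members and 6.35 over all genes. No test was made of these differences, because the list was chosen with earlier results of these data known.

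**Figure D1:**
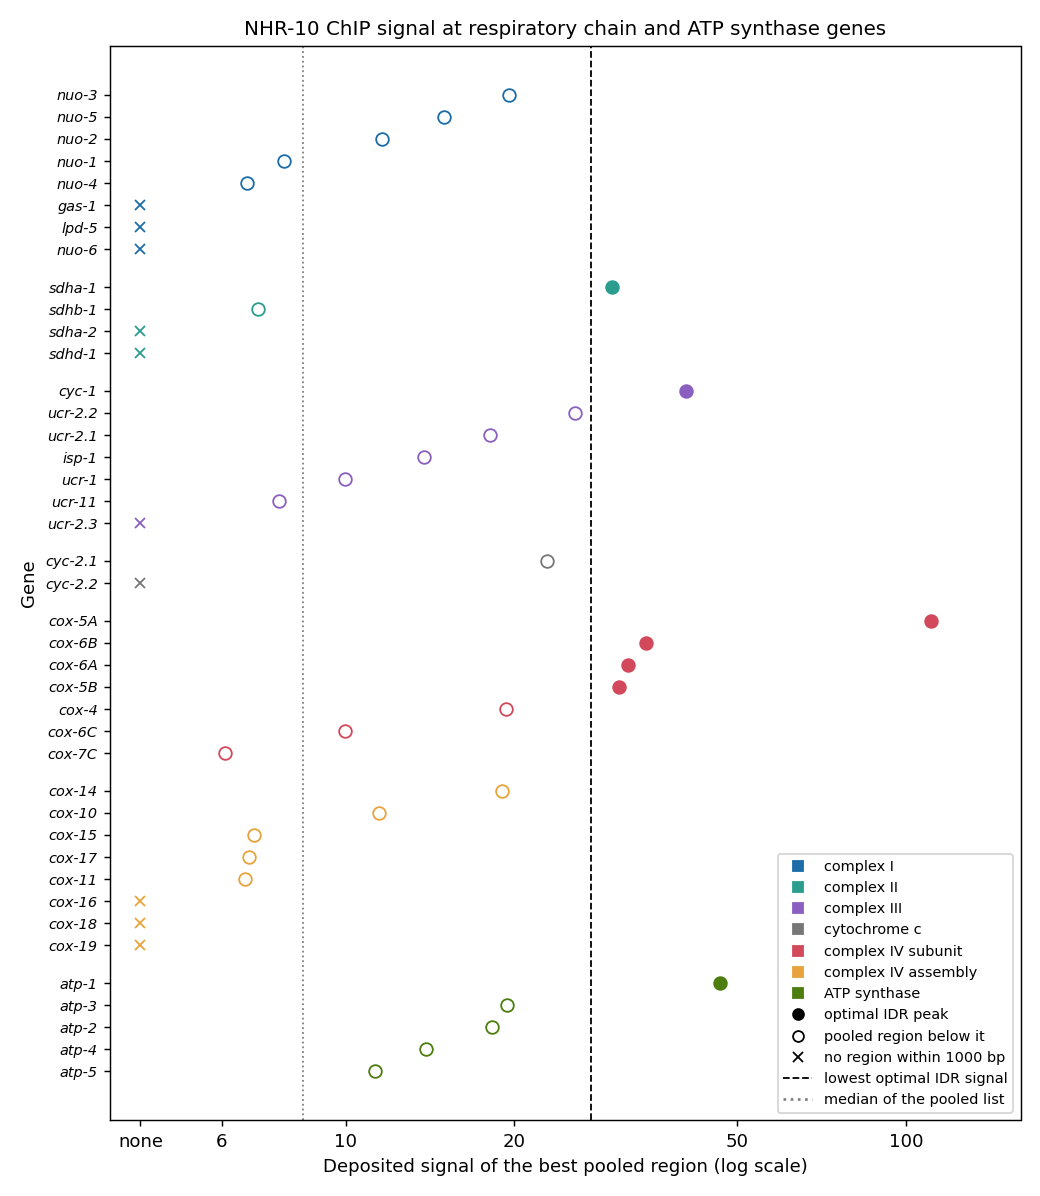
Deposited signal of the best pooled region (log axis) for each of the 41 genes, grouped by complex; filled circles are peaks, open circles are regions below the optimal list, and crosses are the 10 genes with no region within 1000 bp. The dashed line is the lowest peak signal, 27.4, and the dotted line the pooled median, 8.38; cox-5A stands farthest right at 111 and 4 of the 7 filled circles are complex IV subunits.

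Complex IV, cytochrome c oxidase, held the most peaks. Of its 7 structural subunits in the list, 4 had a peak and all 7 had a region. The strongest was at cox-5A, a subunit of the oxidase, with signal 111 and rank 22 in the pooled list. The region lay on III with its summit at 12905202, 289 bp upstream of the TSS, in intergenic sequence with no other protein-coding TSS within 1000 bp. In replicate 1 its signal was 26.3 and its rank 22, and in replicate 2 the signal was 83.3 and the rank 27. Only 11 of the 10585 genes with a region had one of higher signal. It is the member that ranked highest in both replicates.

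The remaining complex IV peaks were weaker than that of cox-5A, and all lay below the median signal of the optimal list, 36.7. The peak of cox-6B had signal 34.3 and rank 294, and its rank was 223 in replicate 1 (signal 11.3), against 355 in replicate 2 (signal 25.0). Its summit on III at 2786042 lay inside the span of the longer cox-6B transcript, 160 bp upstream of the second of 2 annotated starts, and 94 bp from the start of Y71H2AM.20 on the opposite strand. The same region also lay 810 bp upstream of nduc-2, which carries the name of a complex I subunit. This 1 region was thus counted for 3 genes.

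The peak of cox-6A lay farther out, with its summit on III at 5081042, 682 bp upstream of the nearest start. Its signal was 31.9 and its rank 350. Replicate 2 had signal 33.3 and rank 180 there, and replicate 1 had no overlapping region and none within 1000 bp of a cox-6A start. The replicates thus differ at this gene. An snRNA gene, F54D8.7, lay within 500 bp of the summit, and what each gene contributes to the region was not tested. The peak of cox-5B lay at its start, 10 bp upstream, on I at 9788715. It had signal 30.7 and rank 383, with rank 2277 in replicate 1 (signal 5.64) and rank 274 in replicate 2 (signal 28.1).

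The other 3 subunits were below the optimal list. cox-4 had signal 19.3 at rank 1177, with its summit 811 bp downstream of the start. It ranked 16914 in replicate 1 and 1115 in replicate 2, more than 10 times apart. cox-6C had signal 9.95 and cox-7C 6.10, near the bottom of the pooled list. The 7 subunits of this 1 enzyme therefore ran from signal 6.10 to 111.

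Sequences at the summits of the complex IV peaks on III are shown first, since this complex held most of the peaks. Each covers up to 100 bases on either side of the summit, on the strand of the gene, 5′ to 3′, from WBcel235. Annotated UTR bases were left off, which shortened cox-6B to 194 bases. Capitals mark matches on either strand to GAGAGA or GACGCA, to AGTTCA or AGGTCA (sites bound by nuclear receptors), to TGATAA (the GATA factor site), to CACGTG (the E-box), to TGACGT (the CREB site), or to 1 of 9 further words. These are AGAGAC and ACGCAG, then AGTGCG with GCGCAC and GAGCGC, and last CGCGCA and ACGCGC with AGCGCG and GCGCGC. The windows are chrIII:12905102-12905302 for cox-5A, chrIII:2785949-2786142 for cox-6B and chrIII:5080942-5081142 for cox-6A, with the summit at base 101, 94 and 101.
cox-5A: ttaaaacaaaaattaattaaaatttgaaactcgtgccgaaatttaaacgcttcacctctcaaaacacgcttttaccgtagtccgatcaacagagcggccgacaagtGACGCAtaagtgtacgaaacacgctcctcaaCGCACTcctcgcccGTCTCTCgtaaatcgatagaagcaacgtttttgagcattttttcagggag
cox-6B: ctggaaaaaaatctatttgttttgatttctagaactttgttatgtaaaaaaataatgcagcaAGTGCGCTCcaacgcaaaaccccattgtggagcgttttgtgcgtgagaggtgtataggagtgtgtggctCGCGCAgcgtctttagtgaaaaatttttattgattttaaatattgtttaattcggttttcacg
cox-6A: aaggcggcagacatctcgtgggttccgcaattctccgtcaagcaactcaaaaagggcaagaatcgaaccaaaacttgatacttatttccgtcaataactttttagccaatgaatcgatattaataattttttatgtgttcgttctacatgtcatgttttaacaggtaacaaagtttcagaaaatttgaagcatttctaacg
The cox-5A window held GACGCA starting 6 bases after the summit, AGTGCG on the reverse strand, and a run joining AGAGAC and GAGAGA on the reverse strand. The cox-6B window held overlapping matches to AGTGCG with GCGCAC and GAGCGC, and a separate CGCGCA, while no marked word was found in the cox-6A window.

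Complex II and complex III each had 1 peak. sdha-1 encodes the flavoprotein subunit of succinate dehydrogenase, which oxidises succinate. Its peak on X at 8546271, 250 bp upstream, had signal 29.9 and rank 408, with rank 1393 in replicate 1 (signal 6.51) and 436 in replicate 2 (signal 22.8). It was the member peak nearest above the threshold. The summit fell inside the ncRNA gene D2021.5, and the snoRNA gene D2021.6 was within 500 bp. The other complex II members were low or without a region: sdhb-1, the iron-sulfur subunit, had signal 6.97, and sdha-2 and sdhd-1 had no pooled region.

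The membrane subunit mev-1 carries a name outside the rule, and it was looked up after the values of the members were seen. It had a peak on III at 10334143 with signal 37.9 and rank 228, 134 bp upstream of its start and 125 bp from that of jmjd-4. Its rank was 3406 in replicate 1 (signal 4.99) and 208 in replicate 2 (signal 31.6). It is not counted among the members.

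In complex III, which carries electrons from ubiquinol to cytochrome c, cyc-1 had the peak. cyc-1 encodes cytochrome c1. Its summit on I at 8024702 was 280 bp upstream with no other protein-coding start within 1000 bp, and its signal was 40.4 at rank 200. The rank was 1011 in replicate 1 (signal 7.12) and 125 in replicate 2 (signal 39.4). Below the threshold followed ucr-2.2 and ucr-2.1, both core proteins of the complex, with 25.6 and 18.1, and isp-1, the Rieske iron-sulfur protein, with 13.8. A gene on the opposite strand started nearer to the summits of ucr-2.1 and isp-1. These were nmat-1, at 93 bp against 293 bp for ucr-2.1, and islo-1, at 143 bp against 191 bp for isp-1. ucr-1, also a core protein, had 9.95 and ucr-11 had 7.61. ucr-2.3 had no region, so the 3 ucr-2 paralogs differed from each other.

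ucr-2.2 was the member just outside the optimal list, with rank 564. It ranked 496 in replicate 2 (signal 21.7) but 6422 in replicate 1 (signal 4.01), more than 10 times apart. The windows of sdha-1 and ucr-2.2 are given as the members just inside and just outside the threshold, chrX:8546171-8546371 on the minus strand and chrX:15173637-15173802 on the plus strand, the second cut to 166 bases at annotated UTR sequence. The summits are at base 101 and 66.
sdha-1: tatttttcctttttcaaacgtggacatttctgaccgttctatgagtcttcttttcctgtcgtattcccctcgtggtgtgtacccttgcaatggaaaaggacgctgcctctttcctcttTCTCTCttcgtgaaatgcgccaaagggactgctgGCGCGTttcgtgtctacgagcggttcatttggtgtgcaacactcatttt
ucr-2.2: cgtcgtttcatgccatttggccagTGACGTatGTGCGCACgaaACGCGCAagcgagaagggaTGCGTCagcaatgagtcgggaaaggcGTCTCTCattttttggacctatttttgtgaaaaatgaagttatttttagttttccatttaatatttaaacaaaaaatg
The ucr-2.2 window, outside the optimal list, held more marked words than that of sdha-1. It had TGACGT and then GCGCAC on both strands, ACGCGC overlapping CGCGCA, the word GACGCA on the reverse strand across the summit, and the AGAGAC and GAGAGA pair seen at cox-5A. The sdha-1 window had GAGAGA and ACGCGC, both on the reverse strand.

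ATP synthase had a region at all 5 members and a peak at 1. atp-1 encodes the alpha subunit of the catalytic head. Its summit on I at 12652248 was 29 bp upstream of atp-1 and 161 bp from mcrs-1, which starts on the opposite strand. The signal was 46.5 and the rank 150, with rank 62 in replicate 1 (signal 17.6) and 224 in replicate 2 (signal 30.6). It was thus among the 491 highest in both lists.

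The other ATP synthase members formed a band between the pooled median and the threshold. atp-3, the stalk subunit also called OSCP, had signal 19.4 and ranked 19870 in replicate 1 and 933 in replicate 2, more than 10 times apart. atp-2, the catalytic beta subunit, had 18.2 at a summit 296 bp upstream, but C34E10.10 starts nearer, at 237 bp. atp-4 and atp-5, both stalk subunits, had 13.9 and 11.3. The atp-4 summit lay 901 bp upstream, inside the gene alh-4, and the atp-5 summit 511 bp downstream, inside atp-5. The regions nearest to their starts were weaker, with 9.12 at 289 bp for atp-4 and 9.99 at 314 bp for atp-5. The alpha and beta subunits, made in equal number for the enzyme, thus stood at ranks 150 and 1387.

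Complex I, which takes electrons from NADH, had no peak among its 8 members, and the upper limit of its share is wide (exact 95% interval up to 36.9%). nuo-3 had the highest signal, 19.6 at rank 1119, in a promoter where Y57G11C.1147 starts 9 bp from the summit. nuo-5, the large iron-sulfur subunit, followed with 14.9, then nuo-2 with 11.6. nuo-1, the NADH-binding subunit, and nuo-4 had 7.75 and 6.66, below the pooled median. gas-1, lpd-5 and nuo-6 had no region. None of the 5 regions was overlapped in replicate 1.

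Cytochrome c is the soluble carrier between complexes III and IV and has 2 genes in the list. cyc-2.1 had signal 22.8 at rank 761 and no overlapping region in replicate 1, against rank 553 in replicate 2. Its summit lay 254 bp inside the gene. cyc-2.2 had no pooled region within 1000 bp, the nearest being 2573 bp away. The pair therefore differed.

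The 8 complex IV assembly factors had no peak and the lowest median signal of the larger groups, 6.86 over the 5 with a region, against 30.7 over the 7 structural subunits. cox-14 had 19.0 at a summit that lay nearer to rde-4 than to cox-14. cox-10, which makes heme O for the oxidase, had 11.5. cox-15 (6.86), which acts after it in heme A synthesis, was below the pooled median. So were cox-17 (6.72) and cox-11 (6.61), both known from yeast for copper delivery. In this order the ranks were 23606, 24652 and 25479, and cchl-1, sec-20 and JC8.4 started nearer to these summits. cox-16, cox-18 and cox-19 had no region. The difference between subunits and assembly factors was not tested, and the upper limit for the share of assembly factors is again 36.9%.

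The 10 members with no pooled region were gas-1, lpd-5, nuo-6, sdha-2, sdhd-1, ucr-2.3, cyc-2.2, cox-16, cox-18 and cox-19. In the replicate 1 list, 6 of them had a weak region within 1000 bp, the highest at sdha-2 (signal 4.70, rank 4029). In the replicate 2 list 1 had a region, cyc-2.2, at rank 23571. The pooled list stops at signal 6.00, so no region means only that none of that strength was listed.

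The replicates gave the 7 peaks different ranks. In replicate 2 all 7 met a region ranked 491 or better, and in replicate 1 cox-5A, atp-1 and cox-6B did, 3 of 7. These 3 ranked better in replicate 1 than in replicate 2, while cyc-1, cox-5B and sdha-1 ranked better in replicate 2 and cox-6A was listed there alone. Taken over all members, one of the 491 highest regions lay near a start of 7 (17.1%) in replicate 2, against 2.45% of all genes, and of 3 (7.32%) in replicate 1, against 2.01% of all genes. Of the 31 member regions, 18 were overlapped in replicate 1, 25 in replicate 2, 14 in both and 2 (nuo-1 and cox-11) in neither. The optimal list was itself derived from both replicates, so these counts describe it and are no separate check. For the overlap counts of the 31 regions, and the rank differences that follow, no share over all genes is given here. They are therefore not read as a trait of the members.

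Among the 14 regions found in both lists, replicate 2 gave the better rank in 9, and the ranks of ucr-2.2, cox-4 and atp-3 differed more than 10 times. Set against the median of its own list, cox-5A stood at 8.42 times in replicate 1 and 12.1 times in replicate 2, and atp-1 at 5.65 and 4.46 times. cyc-1 stood at 2.28 and 5.75 times. ucr-11 went the other way, with rank 1558 in replicate 1 and no overlapping region in replicate 2.

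**Figure D2:**
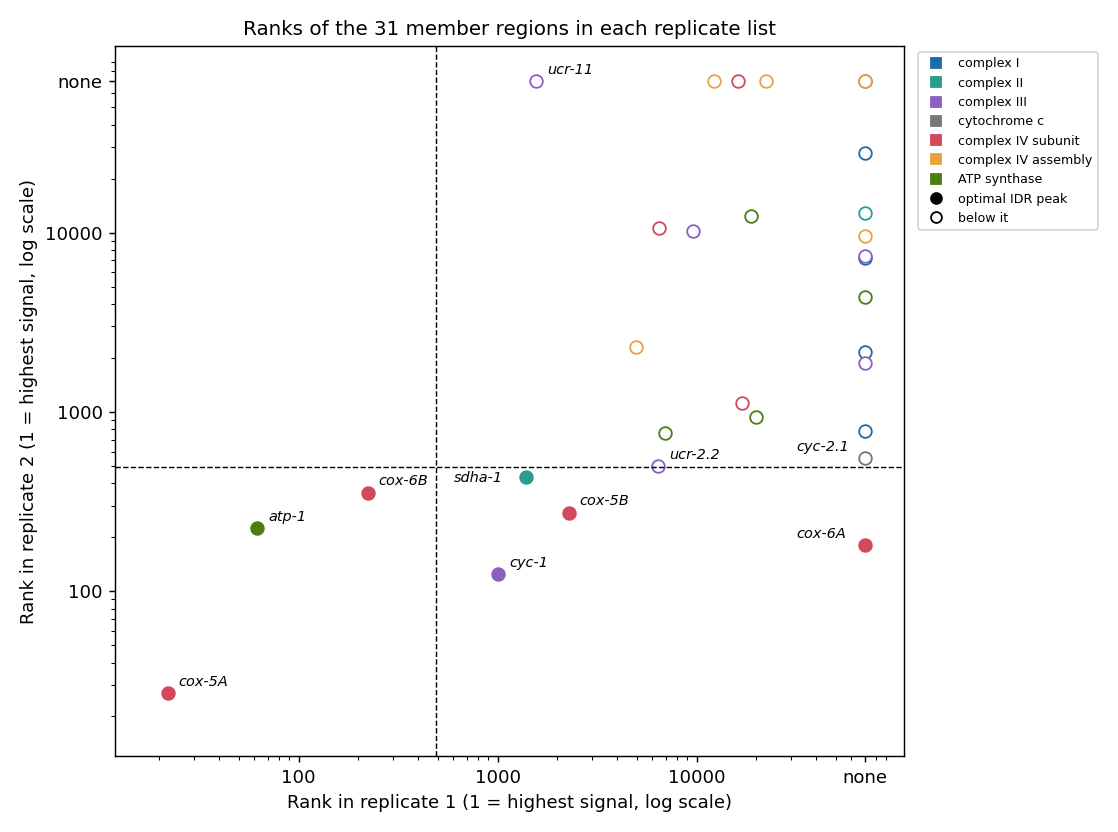
Rank of the 31 member regions in replicate 1 (x) and replicate 2 (y), both on log axes with rank 1 the highest signal; "none" marks regions with no overlap in that list, filled circles are peaks and dashed lines mark rank 491. cox-5A, atp-1 and cox-6B lie inside both lines, while cyc-1, cox-5B, sdha-1 and cox-6A pass only the replicate 2 line.

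The rule itself placed the summit of every region within 1000 bp of a start site. The summit was upstream of the TSS in 23 of 31 (74.2%), against 60.8% of all genes with a region, and within 300 bp in 20 of 31 (64.5%), against 40.6%. Median distance was 254 bp in members and 384 bp over all genes with a region. These sets were not matched for signal, whose median was 14.9 in members and 9.51 over all genes with a region. The part of signal in these positions was not tested, so they are not read as a trait of the members. All 7 peaks were upstream, from 10 to 682 bp away with a median of 250 bp, against 90.5% upstream and a median of 266.5 bp over the 494 genes with a peak. The member was the gene with the nearest start at 6 of the 7 peaks, the exception being cox-6B, and at 20 of the 31 regions. The same share over all genes is not given here. No region was shared between members.

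**Figure D3:**
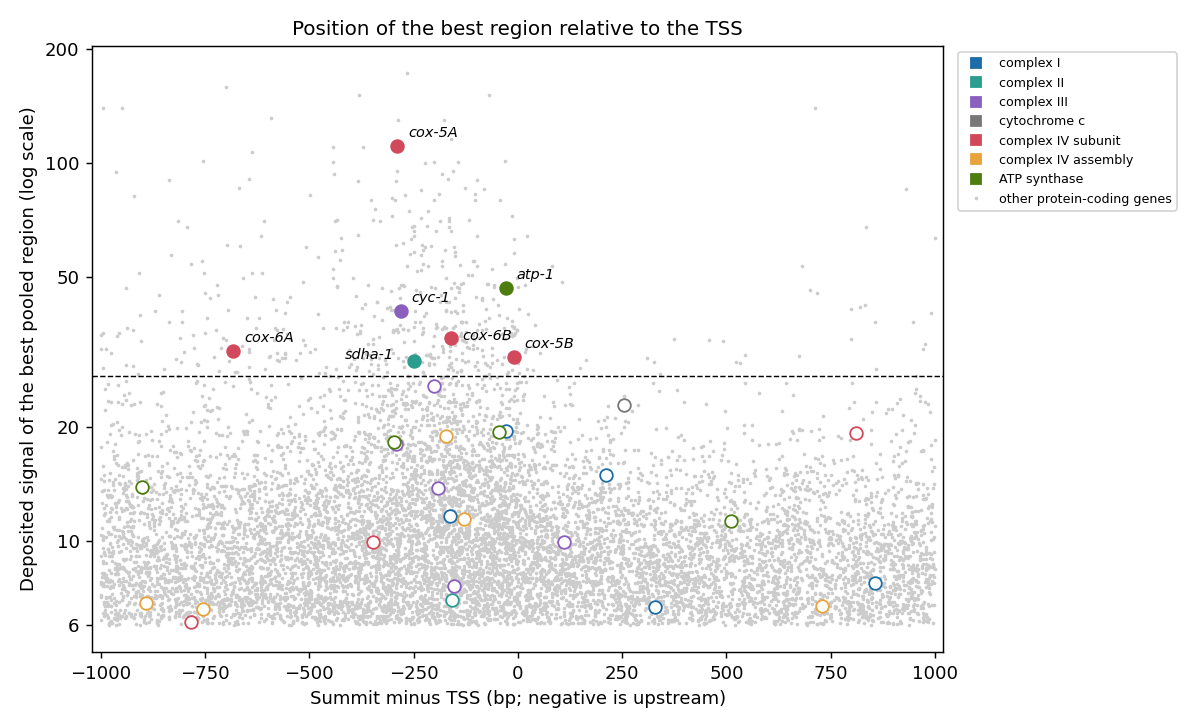
Summit position relative to the TSS in bp (x, negative is upstream) and deposited signal on a log axis (y); filled circles are member peaks, open circles other member regions, grey dots the best region of each other protein-coding gene, and the dashed line the lowest peak signal. The 7 peaks are all upstream, from 10 bp (cox-5B) to 682 bp (cox-6A).

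By chromosome the peaks were on I (3 of 12 members), III (3 of 9) and X (1 of 4). The 16 members on II, IV and V had none. Shares of all genes by chromosome are not given here. Over all nuclear chromosomes 2.47% of genes had a peak, so 16 genes are too few to show a lack. Members and all genes had a median of 1 annotated TSS, so members did not differ from all genes in that median.

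Several members lie just behind another gene on the same strand, an arrangement in which worm genes can be transcribed together from the promoter of the first gene. Whether these are operons is not annotated in the files used here. An upstream gene on the same strand ended within 500 bp of 15 members, and in 3 of them (20%) that gene had a peak, against 4.45% of the 3618 genes so placed. This count was chosen after its values were seen. cyc-2.1 starts 110 bp behind rpl-20, a ribosomal protein gene whose peak had signal 129.6 and rank 19 and lay 1052 bp from a start of cyc-2.1. cox-18 starts 110 bp behind Y55F3AR.2, whose peak had signal 93.5 and ranked 34 in the pooled list and 35 in each replicate, 3093 bp from the cox-18 start. ucr-11 starts 101 bp behind dad-1, a subunit of oligosaccharyltransferase, whose peak had signal 29.3, rank 289 in replicate 2 and no overlap in replicate 1.

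None of the 7 motifs searched one by one was in more than 5 member windows. GAGAGA was within 100 bases of the summit in 5 of 31 member regions (16.1%), against 14.7% of the 9119 distinct best regions of all genes. GACGCA was in 4 (12.9%), at cox-5A, ucr-2.2, ucr-2.1 and ucr-1, against 7.27%. Among all 491 peaks GAGAGA was in 39.7% and GACGCA in 29.1%, against 2 (28.6%) and 1 (14.3%) of the 7 member peaks. The nuclear receptor sites AGTTCA and AGGTCA were in 2 (6.45%) and 1 (3.23%), against 12.3% and 5.11%. None of the 7 member peaks held either, and among all 491 peaks AGTTCA was in 5.70% and AGGTCA in 4.89%, so 7 peaks are too few to show a difference. TGATAA was in 3 (9.68% against 20.4%), TGACGT in 2 (6.45% against 6.43%) and CACGTG in none (against 3.98%).

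The 10 words made of GACGCA and the 9 further words were also searched as a group, which by its size is met more often than 1 motif. At least 1 of them, on either strand and with overlaps allowed, was in 20 of 31 member windows (64.5%), against 29.2% of the best regions of all genes. These words were chosen because they led in the 491 peaks of the same data. The 31 member windows include 7 of these peaks, so the 64.5% and the share in peaks are a description only. Of the 7 member peaks, 6 (85.7%) held one, against 77.8% of all 491 peaks. In the 24 member regions below the optimal list, 14 windows (58.3%) held one, against 27.2% of 8786 such regions of all genes. Median GC content was 37.6% in the 24 member windows and 34.8% in the 8786, and its part in the difference was not tested. These sets were not matched for signal either, and the words came from regions of high signal. The part of signal was not tested. A match is a description of the sequence, not a binding site.

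Other genes of mitochondrial energy metabolism were looked at with the same rule. Of 25 further complex I subunits named in the ndu series, 2 (8%) had a peak: nduf-11 (signal 40.4, rank 201, 171 bp upstream) and nduc-2, through the region it shares with cox-6B. The copper chaperone gene sco-1, 1 of 4 further assembly factors, had a peak of signal 36.7, which ranked 968 in replicate 1 and 286 in replicate 2. ant-1.1, 1 of 4 ADP/ATP carriers, had a peak of signal 36.1 that lay 3 bp upstream and ranked 90 in replicate 1 and 507 in replicate 2. Of 17 genes of pyruvate dehydrogenase and the citric acid cycle, dld-1 had a peak (29.7), with ranks of 18116 and 502 in replicates 1 and 2. The 8 coenzyme Q genes had none, with a highest signal of 16.7 at coq-3.

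The list of 7 ATP synthase genes under other names includes mai-1 and mai-2, which are named for ATPase inhibitors and are not subunits. None of the 7 had a peak, but in replicate 1 the regions of 3 were among the 491 highest. These were asb-2, asg-2 and mai-1, all on X, at ranks 243, 472 and 117. In replicate 2 asb-2 ranked 3187 and asg-2 ranked 9406, and mai-1 had no overlapping region. Their pooled signals were 22.6, 20.3 and 17.8, so all 3 fell short of the threshold.

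Side by side, the share of genes with a peak was 17.1% in the 41 members, 4.29% in 70 mitochondrial ribosomal protein genes, 32.1% in 81 cytoplasmic ribosomal protein genes and 3.03% in 33 proteasome genes. The 26 cytoplasmic ribosomal genes with a peak had 24 distinct peaks between them. The mitochondrial ribosomal peaks were those of mrpl-28 (44.1), mrps-7 (36.4) and mrps-21 (32.2), and the proteasome peak was that of rpn-3 (66.1), which also lay 249 bp from the start of hsp-110. Median signal over genes with a region was 14.9 in members, 10.7 in mitochondrial ribosomal, 19.2 in cytoplasmic ribosomal and 11.6 in proteasome genes. These lists were not tested against each other.

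**Figure D4:**
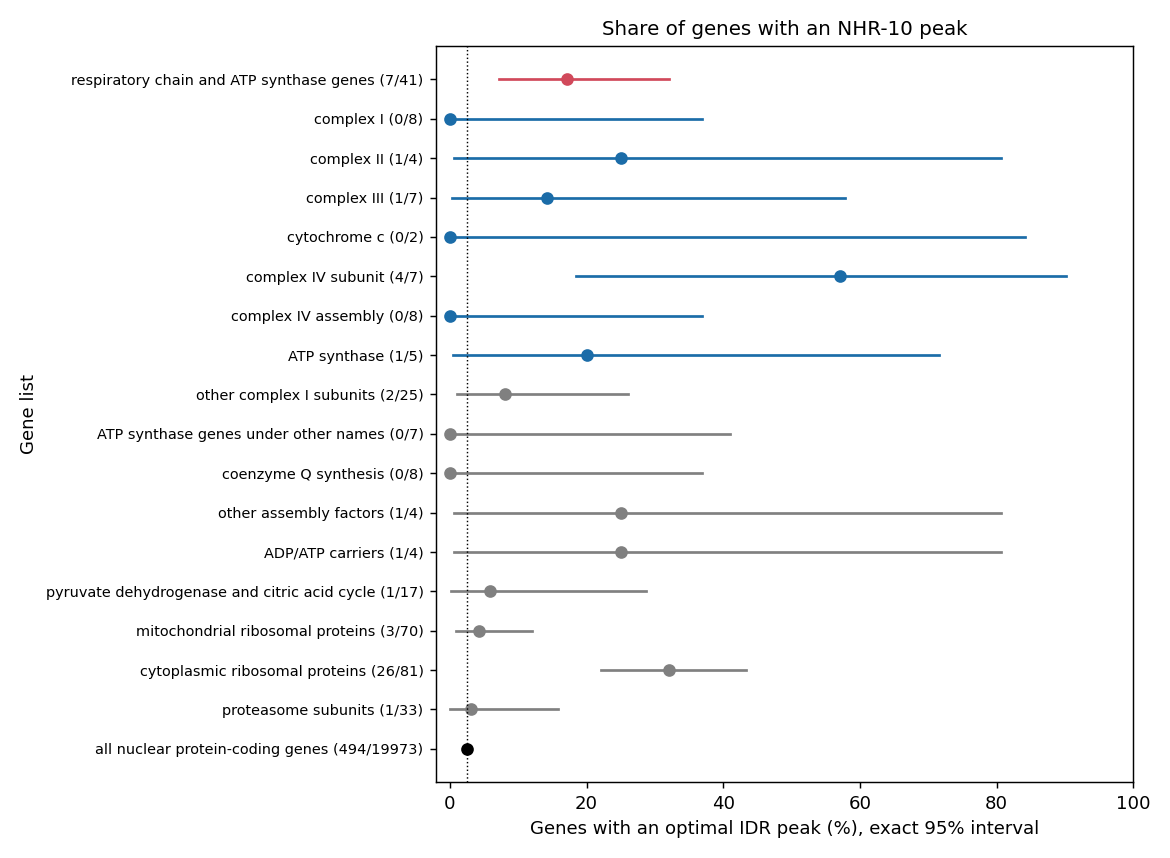
Share of genes with an optimal IDR peak within 1000 bp of a TSS (x, percent) for each list (y, with counts); points are shares, bars exact 95% intervals that cover counting error only, and the dotted line the share of all genes, 2.47%. Members (red) stand at 17.1%, complex IV subunits at 57.1% (4 of 7), and complex I, cytochrome c and complex IV assembly at 0.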

How the data were processed

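ChIP-seq of NHR-10 was measured in 2 libraries of 1 group. The authors deposited region lists in narrowPeak layout with a signal value per region. Per the deposited notes, a replicate list was made from that replicate's alignment with a control. Both replicates with a control gave the pooled list. IDR on these 3 lists gave the optimal list. The caller, the aligner, the IDR cutoff and the signal's scaling are not given in the sources used here. The ce11 lists were used, and the ce10 lists were not analysed here. Positions are 1-based, with genes from Ensembl release 115 on WBcel235 and sequence from the RefSeq copy of that assembly, in which every region ended inside its chromosome.

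Every gene took the highest region with a summit within 1000 bp of any TSS. A replicate value is that of the highest region overlapping it by at least 1 base. Lists differ in length (22993 regions in replicate 1, 30000 in replicate 2), so no mean over replicates was computed. Motifs were searched within 100 bases of the summit on both strands. Shares carry exact Clopper-Pearson intervals. No test was made across genes.

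The members, lists and motifs were chosen with earlier results of these data known, and no result here is independent of them. The names given are every member with a peak, the 10 next by signal, those without a region, those whose replicate ranks differ more than 10 times, and others by complex. In the lists of other energy genes and of mitochondrial ribosomal and proteasome genes, every gene with a peak is named; among cytoplasmic ribosomal genes, only the count is given. mev-1, the upstream neighbours, the 9 further words, and genes named below the optimal list in other lists were chosen after values were seen. The assignment was tested on simulated data. Python 3.11.15, numpy 2.4.6, pandas 2.3.3, scipy 1.17.1 and pysam 0.24.0 were used.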

Additional observations from a re-analysis of the deposited data

How the results depend on the processing

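The count of members with a peak was 7, against 2.47% of all genes. It was 6 within 500 bp (all genes 1.82%), with the most upstream TSS (2.35%) and with the nearest gene only (1.68%), and 9 within 2000 bp (3.46%) and in the 1000 highest pooled regions (4.44%). It was 3 (cox-5A, atp-1 and cyc-1) in the upper 50% of the optimal list, against 1.27% of all genes. With 1 replicate left out it ran from 3 to 7: the 491 highest regions of replicate 1 alone kept cox-5A, atp-1 and cox-6B. cox-6B was lost with the most upstream TSS or the nearest gene only, and cox-6A at 500 bp. At 2000 bp cyc-2.1 and ucr-11 were added, through the regions of rpl-20 and dad-1. Members with any region ran from 23 with the nearest gene only (all genes 47.2%) to 36 within 2000 bp (70.6%), and their median signal from 13.9 to 18.1. With summits within 100 bp required, 10 member regions were matched in replicate 1, against 18 by overlap. AGGTCA was in 0 of the member windows of 100 bp, and no other motif share moved beyond its counting interval. No paired analysis was possible because there was only 1 group. The pooled list is labelled as holding background beside peaks, and depth is unknown, so weak regions cannot be separated from background.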
